A study of Oryctolagus cuniculus with 10 samples.

Results

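The 7 genes described here belong to epithelial cell junctions and were followed, out of 23669 genes in the deposited table, in vocal fold RNA of 10 male New Zealand White rabbits aged 6 months. They were chosen by Ensembl ID as those that stand for CDH3, NECTIN1, CLDN7, DSG1, CAMSAP3 and PLEKHA7, and all 7 passed the filter on low counts, as did 15040 genes in all. The dehydrated group of 6 rabbits was injected intraperitoneally with 5 mg/kg of the loop diuretic furosemide and kept without food and water. The target was a loss of 5% of body weight. By the study's protocol the injection was repeated where the loss stayed too small, and animals were killed on reaching the target, after differing times. The labels do not give the number of injections or the time for each rabbit. The control group of 4 rabbits was given saline and kept its food and water, and both groups had been hydrated beforehand with a sucrose solution. Each library came from a separate animal, and the tissue held the mucosa together with the thyroarytenoid muscle. Rabbits are named by the numbers in their sample labels, so that controls are 12, 14, 17 and 21 and dehydrated animals are 13, 15, 16, 18, 19 and 22.

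Stratified epithelia are held together by several kinds of contact. Adherens junctions are built from cadherins and nectins, tight junctions from claudins that seal the space between cells, and desmosomes from desmogleins and desmocollins that anchor keratin filaments. In the vocal fold these contacts lie in the thin epithelium that covers the lamina propria and muscle.

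The deposited table gave IDs without gene names, so the names rest on the functional terms that the study lists for each ID. CDH3 (ENSOCUG00000029153), NECTIN1 (ENSOCUG00000010458) and CLDN7 (ENSOCUG00000007002) each matched 1 ID. CAMSAP3, which binds the minus ends of microtubules, and PLEKHA7, an adaptor of the zonula adherens, matched a pair of IDs whose order is not known, ENSOCUG00000017373 (pair gene A) and ENSOCUG00000022921 (pair gene B). DSG1, a desmosomal cadherin, matched ENSOCUG00000006498 (candidate A) and ENSOCUG00000021242 (candidate B), and at most 1 of these can be DSG1. Desmogleins are a family of related genes, so reads shared between paralogs would make the values of both candidates uncertain. The study picked the junction genes with Cuffdiff as lower in these same rabbits, so a lower level in the dehydrated group is not independent evidence of a change. The study also ran RT-qPCR with a one-tailed test. By it CDH3, NECTIN1 and DSG1 were significantly lower, whereas CLDN7, CAMSAP3 and PLEKHA7 were lower without reaching significance. Levels of different genes were not compared with each other, because transcript lengths were not used here.

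Between 39039165 and 69670859 reads per rabbit were counted on genes, and 3 counts corresponded to 0.0431 to 0.0768 CPM (counts scaled to library size). The 7 genes had between 496 and 19858 counts in every library, so counting error added at most 0.088 (standard error, log2) to any ratio between them. Reads ambiguous between genes made up 0.487 to 0.590% of the alignments in rabbits 14, 18, 19, 21 and 22 and 1.62 to 2.55% in the other 5, with 2 control and 3 dehydrated rabbits in each set. Alignments that were not unique also differed between these sets, at 26 to 35% in the first and 14.6 to 19.8% in the second. Markers of muscle, fibroblasts or immune cells could not be looked up without names. In bulk tissue, fewer epithelial cells and less RNA per cell cannot be told apart, and this holds for every level below.

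The cadherin and the nectin of the adherens junction were lower in the dehydrated group on average, but the groups overlapped. CDH3 encodes P-cadherin, a cadherin of basal epithelial cells. It had 36.0, 21.1, 10.6 and 35.5 CPM in control rabbits 12, 14, 17 and 21, and 7.43 to 14.4 CPM (median 12.0) in the dehydrated rabbits. Rabbit 17 was the third lowest of all 10, whereas the other 3 control rabbits were above every dehydrated rabbit. Controls averaged 25.8 ± 12.3 CPM (SD, n = 4) and dehydrated rabbits 11.5 ± 2.95 CPM (SD, n = 6), which corresponded to a log2 fold change of -1.17 ± 0.32 (standard error; adjusted p = 0.483 over all genes by edgeR, which adjusted with the Benjamini-Hochberg method). NECTIN1, an immunoglobulin-like adhesion molecule, had 106, 110, 29.6 and 170 CPM in the same order of control rabbits and 36.5 to 59.6 CPM (median 45.8) in the dehydrated rabbits. Rabbit 17 was here the lowest of all 10, and the dehydrated rabbits spread the least of all the junction genes, with an SD of 0.22 on the log2 scale against 1.09 in the controls. NECTIN1 had a log2 fold change of -1.16 ± 0.35 (standard error; adjusted p = 0.483 by edgeR).

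The CAMSAP3 and PLEKHA7 pair was also lower, with more spread in 1 of the 2 genes. Pair gene A had 81.7, 74.3, 27.3 and 133 CPM in control rabbits 12, 14, 17 and 21 and 25.6 to 52.9 CPM (median 43.4) in the dehydrated rabbits. Pair gene B had 55.4, 51.5, 12.6 and 72.0 CPM in those controls and 12.5 to 32.5 CPM (median 22.6) in the dehydrated rabbits. In both genes rabbit 17 was the second lowest animal, and every dehydrated rabbit was below the other 3 controls. Log2 fold changes of -0.92 ± 0.34 and -1.06 ± 0.42 (standard error) were found for pair genes A and B (adjusted p = 0.484 and 0.491 by edgeR).

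The tight junction gene CLDN7, a claudin of simple and stratified epithelia, had 92.8, 62.7, 27.3 and 127 CPM in control rabbits 12, 14, 17 and 21. The dehydrated rabbits had 30.7 to 53.1 CPM (median 37.4). Rabbit 17 was the lowest of all 10 and the other controls were again above every dehydrated rabbit. For CLDN7 edgeR gave a log2 fold change of -0.94 ± 0.34 (standard error; adjusted p = 0.484).

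The DSG1 candidates were lower on average too, with overlap between the groups. Candidate A had 39.6, 72.1, 21.7 and 94.9 CPM in control rabbits 12, 14, 17 and 21 and 14.8 to 51.3 CPM (median 26.0) in the dehydrated rabbits. In candidate A, dehydrated rabbits 16, 18, 19 and 22 were above control 17, and rabbit 19, with 51.3 CPM, was also above control 12. Candidate B had 164, 160, 46.7 and 264 CPM in the controls and 33.9 to 87.0 CPM (median 77.5) in the dehydrated rabbits. Of these, rabbits 13 and 18 had 33.9 and 39.7 CPM, below control rabbit 17, and the other 4 had at least 75.6 CPM. EdgeR gave log2 fold changes of -1.01 ± 0.41 for candidate A and -1.25 ± 0.42 for candidate B (standard error; adjusted p = 0.494 and 0.483). Mean CPM in controls and dehydrated rabbits was 57.1 and 28.3 for candidate A, and 159 and 66.5 for candidate B. The RNA-Seq fold change that the study reports for DSG1 is nearer to that of candidate A than to that of candidate B. Which candidate is DSG1 was not tested, so the ratios to candidate B below need not be ratios to DSG1.

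**Figure D1:**
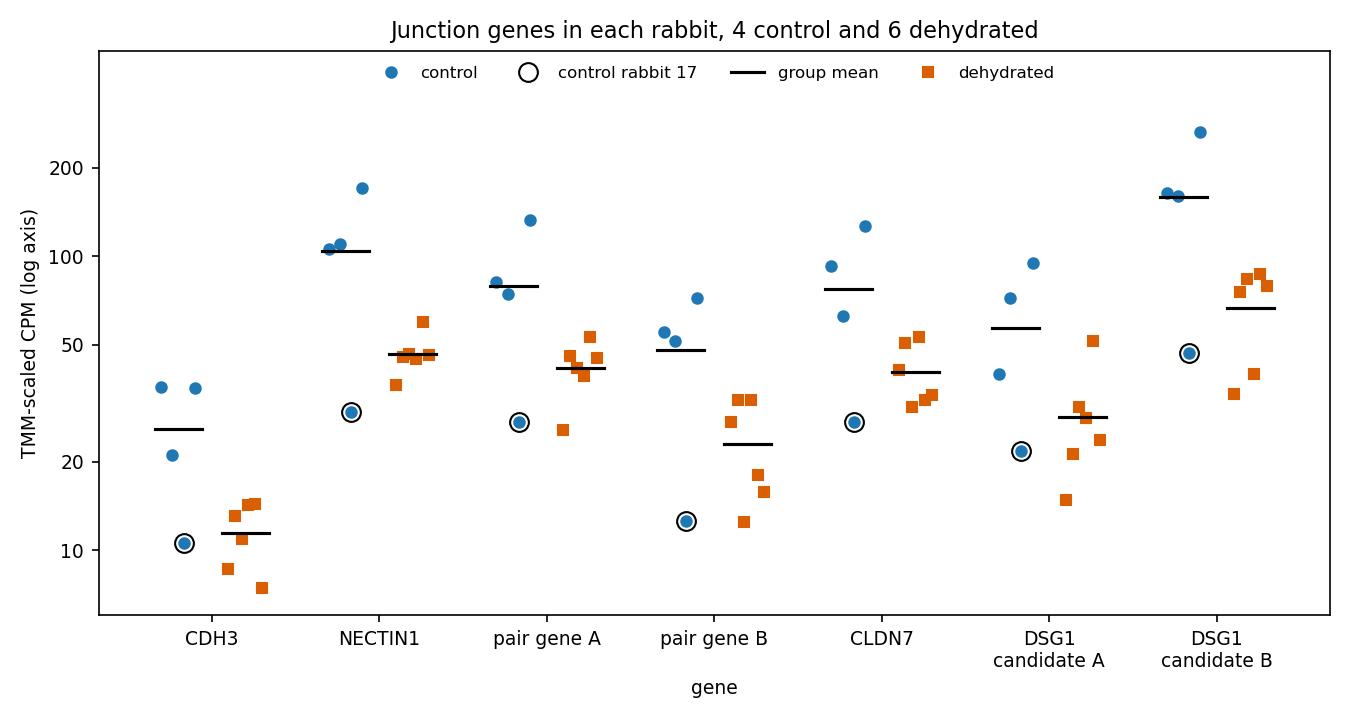
CPM (log axis) of the 7 junction genes in each of 4 control rabbits (circles) and 6 dehydrated rabbits (squares), with group means as bars and control rabbit 17 ringed. In every gene rabbit 17 lies within or below the dehydrated rabbits, and the other 3 controls lie above all dehydrated rabbits except in DSG1 candidate A, where dehydrated rabbit 19 reaches 51.3 CPM.

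None of the 7 genes passed the adjusted threshold of 0.05, and the share of all genes tested that did was 0%. The unadjusted p was 0.05 or less, with a lower level, in 7 of 7 junction genes against 5.11% of all genes, which follows from how they were chosen. In the exact permutation test on log2 CPM over the 210 splits of the rabbits, 2 of 7 had an unadjusted two-sided p of 0.05 or less, CDH3 and DSG1 candidate B (p = 0.0476 each), against 3.28% of all genes in this direction. The other 5 had p between 0.0667 and 0.124. None of the 7 separated the groups, and 1.22% of all genes did so. The 95% interval of the difference in mean log2 CPM was -2.03 to -0.06 for CDH3 and -1.88 to 0.59 for NECTIN1.

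Much of this rested on single control rabbits. Without rabbit 17, 6 of 7 passed the adjusted threshold, with adjusted p from 0.0179 for NECTIN1 to 0.0407 for pair gene B, and 2.0% of all genes passed it with a lower level. DSG1 candidate A did not (adjusted p = 0.0786 in edgeR's test). Without control rabbit 21, which was highest in 6 of 7 genes, the adjusted p was 0.990 for every junction gene and the median log2 fold change moved from -1.06 to -0.79, with 2 of 7 lower at an unadjusted p of 0.05 or less against 1.98% of all genes in that fit. No reason to leave out either rabbit is given in the labels. Within the libraries with a low ambiguous share the log2 ratio of mean CPM lay between -1.63 and -1.18, and within the others, which include rabbit 17, between -1.10 and -0.46. The difference between these sets was not tested.

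The ratios between the junction genes asked whether dehydration was accompanied by a shift in their proportions. A ratio of 2 counts in one library does not depend on library size or scaling. Over the 21 pairs, the mean log2 ratio differed between groups by -0.31 to 0.36, with a median size of 0.16. None of the 21 differed at an unadjusted p of 0.05 or less in the exact two-sided permutation test, and the adjusted p over the 21 pairs was 0.988 to 0.990. The share of all other genes whose ratio to the same junction gene differed at that level was 37.9% for CDH3, 7.79% for NECTIN1, 5.49% for pair gene A, 5.07% for pair gene B, 8.12% for CLDN7, 6.56% for DSG1 candidate A and 19.9% for DSG1 candidate B. All of the junction genes were chosen as lower in the dehydrated group, so their ratios were not chosen independently of it.

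The pair with the smallest p was pair gene A over DSG1 candidate B. Its log2 ratio was -1.01, -1.11, -0.78 and -0.99 in control rabbits 12, 14, 17 and 21, and -1.01 to -0.02 in the dehydrated rabbits. The mean was -0.97 ± 0.14 (SD, n = 4) in controls and -0.61 ± 0.35 (SD, n = 6) in dehydrated rabbits, a difference of 0.36 with a 95% interval of -0.02 to 0.84 (exact permutation p = 0.0667, adjusted p = 0.988). Dehydrated rabbits 13 and 18, at -0.41 and -0.02, were the farthest from the controls. The pair with the largest p was pair gene B over DSG1 candidate A. It averaged -0.30 ± 0.55 (SD, n = 4) in controls and -0.28 ± 1.0 (SD, n = 6) in dehydrated rabbits, a difference of 0.01 with a 95% interval of -1.25 to 1.34 (exact permutation p = 0.990).

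These intervals bound what the 10 rabbits could show. The narrowest, for NECTIN1 over pair gene A, ran from -0.41 to 0.11 around a difference of -0.18, so that a mean ratio below 0.753 times or above 1.08 times that of the controls lay outside it. For 15 of the 21 pairs the whole interval lay within 1 log2 unit of no difference, and for the other 6 it did not. The groups overlapped in all 21 ratios. Within the sets of libraries with a low and a high ambiguous share, the difference had the same sign in 11 pairs and opposite signs in 10. CDH3 over NECTIN1, for example, differed by 0.21 in the first set and by -0.47 in the second.

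**Figure D2:**
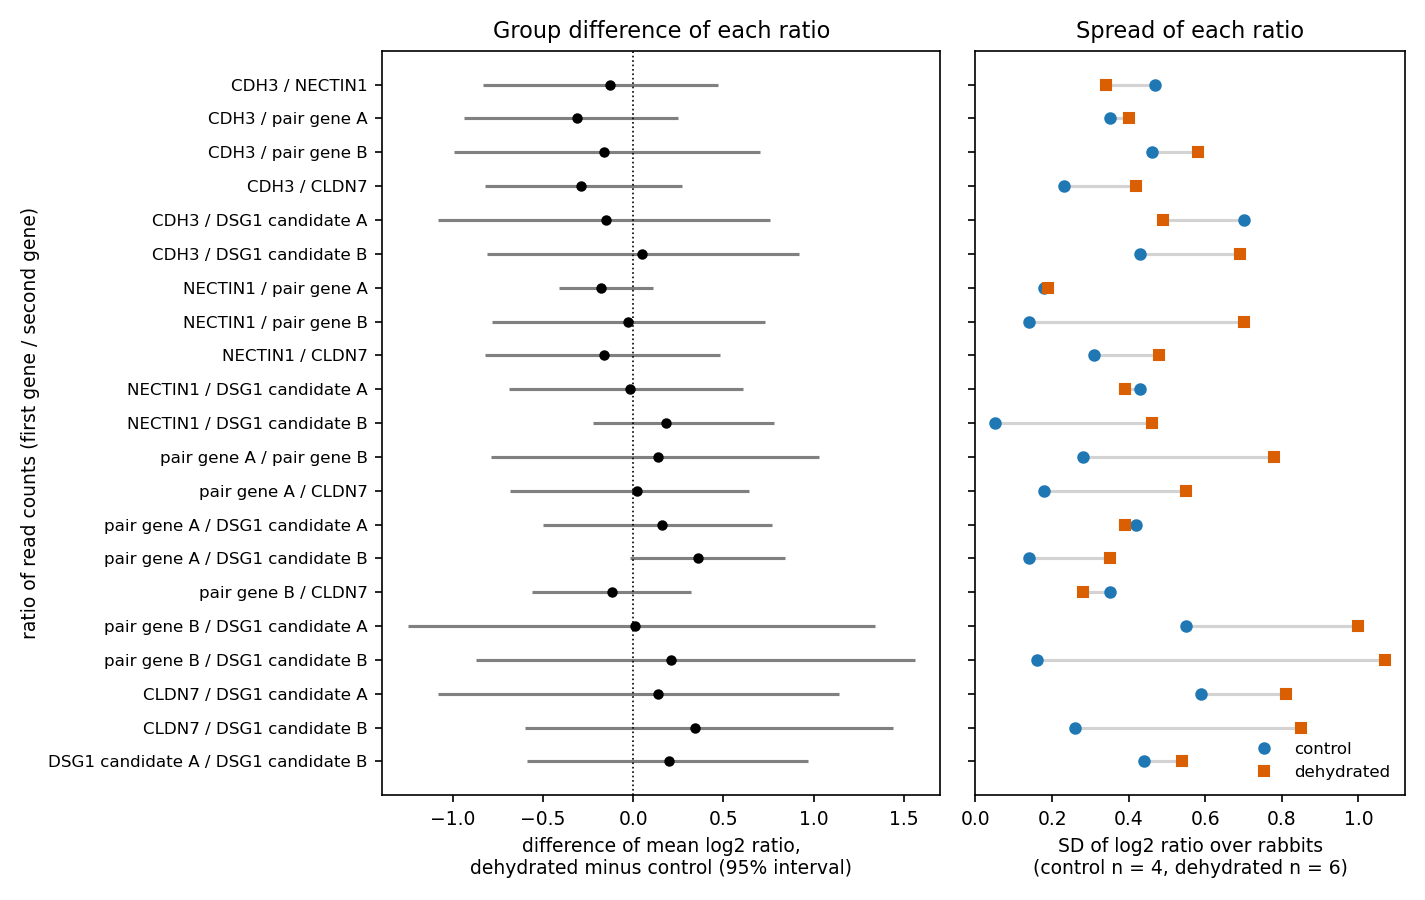
Left, difference of the mean log2 count ratio between dehydrated and control rabbits for the 21 pairs (points) with 95% intervals from the exact permutation test (lines). Right, SD of the same log2 ratios over the 4 control rabbits (circles) and the 6 dehydrated rabbits (squares). All 21 intervals include 0, and the SD is larger in the dehydrated rabbits in 16 pairs.

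Although the mean ratios were close, their spread over rabbits was not alike in both groups. The log2 levels of single genes spread more in the controls, with SDs of 0.83 to 1.13 against 0.22 to 0.60 in the dehydrated rabbits, and this order held for 7 of 7 junction genes and for 54.7% of all genes tested. The ratios between them went the other way, with a median SD of 0.35 in controls and 0.49 in dehydrated rabbits and a larger SD in the dehydrated group in 16 of 21 pairs. Of the ratios between a junction gene and all other genes, between 15.0 and 27.3% had the larger SD in the dehydrated group. These are descriptions, with no test, over 4 and 6 rabbits.

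How far the proportions varied among controls depended on the pair. The SD of the log2 ratio over the 4 controls ran from 0.05 for NECTIN1 over DSG1 candidate B to 0.70 for CDH3 over DSG1 candidate A, and it was larger in controls than in dehydrated rabbits in 5 pairs. NECTIN1 over DSG1 candidate B, the tightest pair in controls, had log2 ratios of -0.63, -0.54, -0.66 and -0.63 in control rabbits 12, 14, 17 and 21, an SD of 0.05 (n = 4), although the level of NECTIN1 ran from 29.6 to 170 CPM over the same animals. In the dehydrated rabbits this ratio ran from -0.85 to 0.17, with an SD of 0.46 (n = 6). Rabbits 13 and 18 had 0.11 and 0.17, and the other 4 had -0.85 to -0.55. Pair gene B over DSG1 candidate B had SDs of 0.16 (n = 4) and 1.07 (n = 6), the largest of any pair in the dehydrated group. For the controls as a whole, the median SD of a junction gene's ratios was 0.21 to 0.49 to the other junction genes and 0.91 to 1.19 to all other genes. In the dehydrated rabbits the same medians were 0.39 to 0.74 and 0.41 to 0.71. These pairs were picked after their values were seen.

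The genes varied together over the 10 rabbits. Pearson's r of log2 CPM was positive in all 21 pairs, from 0.58 to 0.97 with a median of 0.86, and Spearman's rho lay between 0.48 and 0.98. In permutation tests with 100000 resamples, adjusted over the 21 pairs, 18 pairs passed the threshold for r and 13 for rho. The median r of a junction gene with all other genes lay between -0.05 and 0.04. These values include the difference between the groups, by which the genes were chosen, and that by itself makes r positive. The p-values over 10 rabbits, here and for the pairs named next, are therefore no independent evidence that the genes vary together. The share of other gene pairs that would pass was not computed. With the 2 rabbits farthest from the median of the first gene left out, r fell to a median of 0.68 and a lowest value of 0.24, and was below 0.5 in 5 pairs. With each group centred on its mean the median r was 0.80, as a description.

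By rho the closest pair over all rabbits was CLDN7 and pair gene B (r = 0.96, permutation p = 2e-05, the smallest that 100000 resamples can give; rho = 0.98, permutation p = 6e-05). Without rabbits 16 and 21, r stayed at 0.96. By r it was NECTIN1 and pair gene A, with r = 0.97 (permutation p = 4e-05), rho = 0.93 (permutation p = 0.00034) and r = 0.95 without rabbits 14 and 21. By r the loosest pair was pair gene B and DSG1 candidate A (r = 0.58, permutation p = 0.0841; rho = 0.49, permutation p = 0.155), and by rho it was CLDN7 and DSG1 candidate A (rho = 0.48, permutation p = 0.168). For CLDN7 and DSG1 candidate B, r was 0.71 (permutation p = 0.0256, adjusted p = 0.0299) and fell to 0.24 without rabbits 12 and 21, so this relation rested on those controls.

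Within the 6 dehydrated rabbits the junction genes did not all vary together. The median r was 0.37, or 0.22 without rabbit 13, and 8 of 21 pairs had a negative r. All 8 were pairs of CLDN7 or pair gene B with NECTIN1, pair gene A or a DSG1 candidate. Their r lay between -0.65 and -0.25 and none had an exact unadjusted p of 0.05 or less, the lowest being 0.181. Of the positive pairs, 5 reached 0.05 before adjustment and 0 of 21 after it (exact test over 720 pairings, smallest possible p 0.00278). The median r of a junction gene with all other genes within these 6 rabbits lay between -0.07 and 0.01. The share of all genes that reached 0.05 was not computed. The 4 controls were too few for a correlation, so the groups were not compared in r.

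CLDN7 and pair gene B had r = 0.95 within the dehydrated rabbits (exact permutation p = 0.00833, adjusted p = 0.0875) and r = 0.95 again without the 2 rabbits farthest from the median. NECTIN1 and DSG1 candidate B ranked the 6 rabbits in the same order, with a rho of 1 (exact permutation p = 0.00278, adjusted p = 0.0583) and r = 0.74. NECTIN1 was at 45.3, 46.3, 44.6 and 46.2 CPM in rabbits 15, 16, 18 and 22, so their order in this gene rested on very small differences. NECTIN1 and DSG1 candidate A had r = 0.95 (exact permutation p = 0.0278, adjusted p = 0.117), which fell to 0.10 without the 2 farthest rabbits and so rested on those. CDH3 stood between these genes, with r from 0.10 to 0.59 to the other 6. For scale, the share of all genes with a size of r of 0.9 or more within these 6 rabbits was taken for each junction gene. It was 0.539% for CDH3, 1.7% for NECTIN1, 4.12% for pair gene A and 5.01% for pair gene B. For CLDN7 the share was 4.59%, and for DSG1 candidates A and B it was 1.4% and 12.3%.

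**Figure D3:**
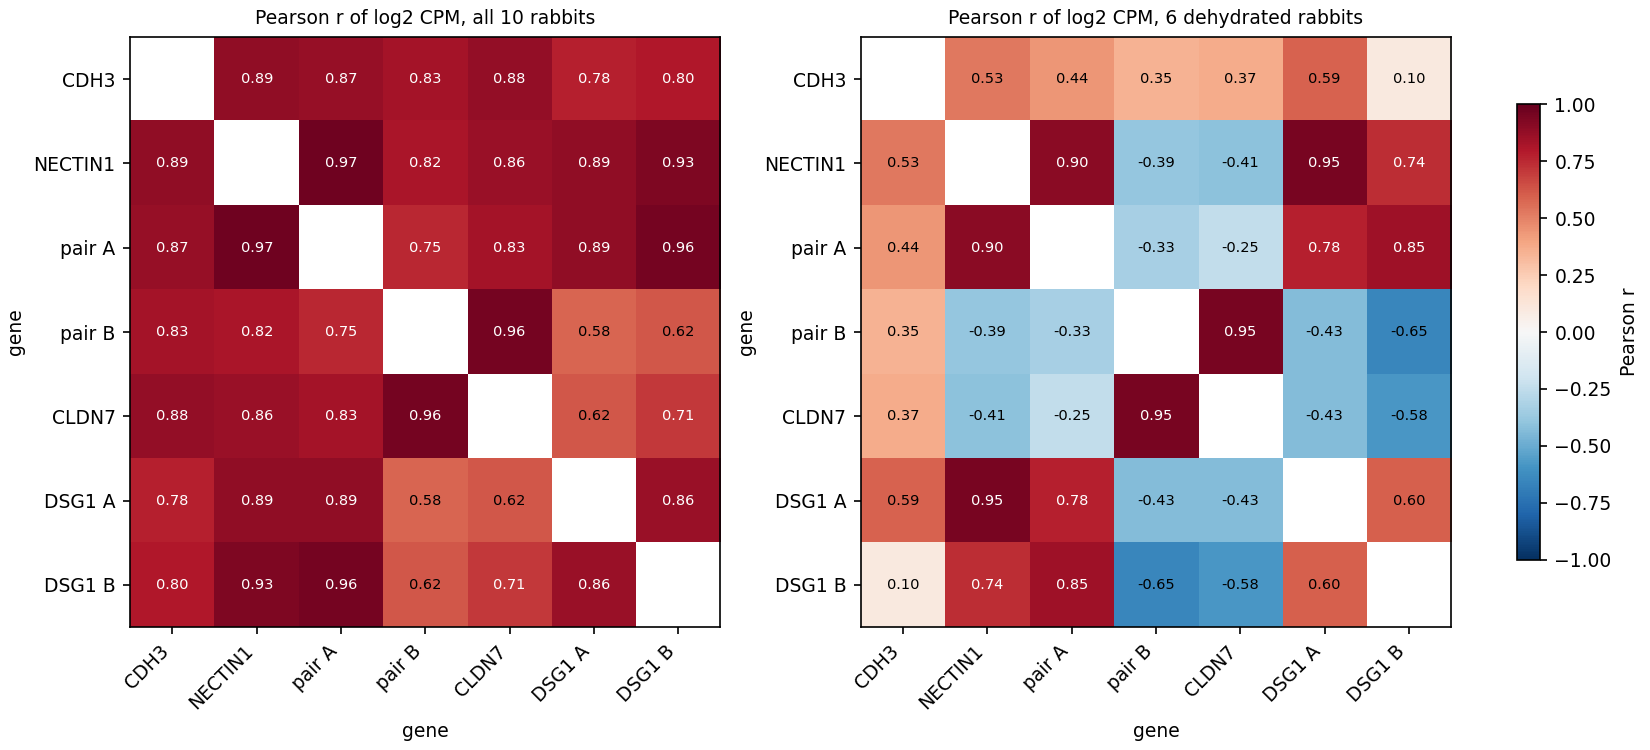
Pearson r of log2 CPM for each pair of junction genes, over all 10 rabbits on the left and within the 6 dehydrated rabbits on the right, on a colour scale from -1 to 1. All 21 pairs are positive on the left, and the 8 negative pairs on the right all join CLDN7 or pair gene B with NECTIN1, pair gene A or a DSG1 candidate.

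The rabbits behind this pattern can be read from the levels. CLDN7 was at 41.0, 50.6 and 53.1 CPM in dehydrated rabbits 13, 15 and 18 and at 30.7, 32.4 and 33.8 CPM in rabbits 16, 19 and 22. Pair gene B was at 27.2, 32.3 and 32.5 CPM in the first 3 of these and at 12.5, 18.0 and 15.8 CPM in the last 3. DSG1 candidate B was at 33.9, 75.6 and 39.7 CPM in rabbits 13, 15 and 18 and at 83.7, 87.0 and 79.3 CPM in rabbits 16, 19 and 22. Rabbits 13 and 18 thus had more CLDN7 and less DSG1 candidate B than rabbits 16, 19 and 22, while rabbit 15 was with the former in CLDN7 and closer to the latter in DSG1 candidate B.

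NR4A3, a nuclear receptor transcription factor, differed among the same animals. The log2 ratio of CLDN7 to DSG1 candidate B was -1.45, -1.43 and -1.23 in rabbits 16, 19 and 22, which had 305, 227 and 241 CPM of NR4A3, and -0.58, 0.28 and 0.42 in rabbits 15, 13 and 18, which had 42.9, 19.8 and 11.5 CPM. The controls had 1.74 to 13.0 CPM of NR4A3 and log2 ratios of -1.35 to -0.77. In this ratio rabbit 22 lay within the range of the controls, rabbits 16 and 19 lay just below it, and rabbits 13, 15 and 18 lay above it. These values were set side by side after they were seen, and their relation was not tested.

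**Figure D4:**
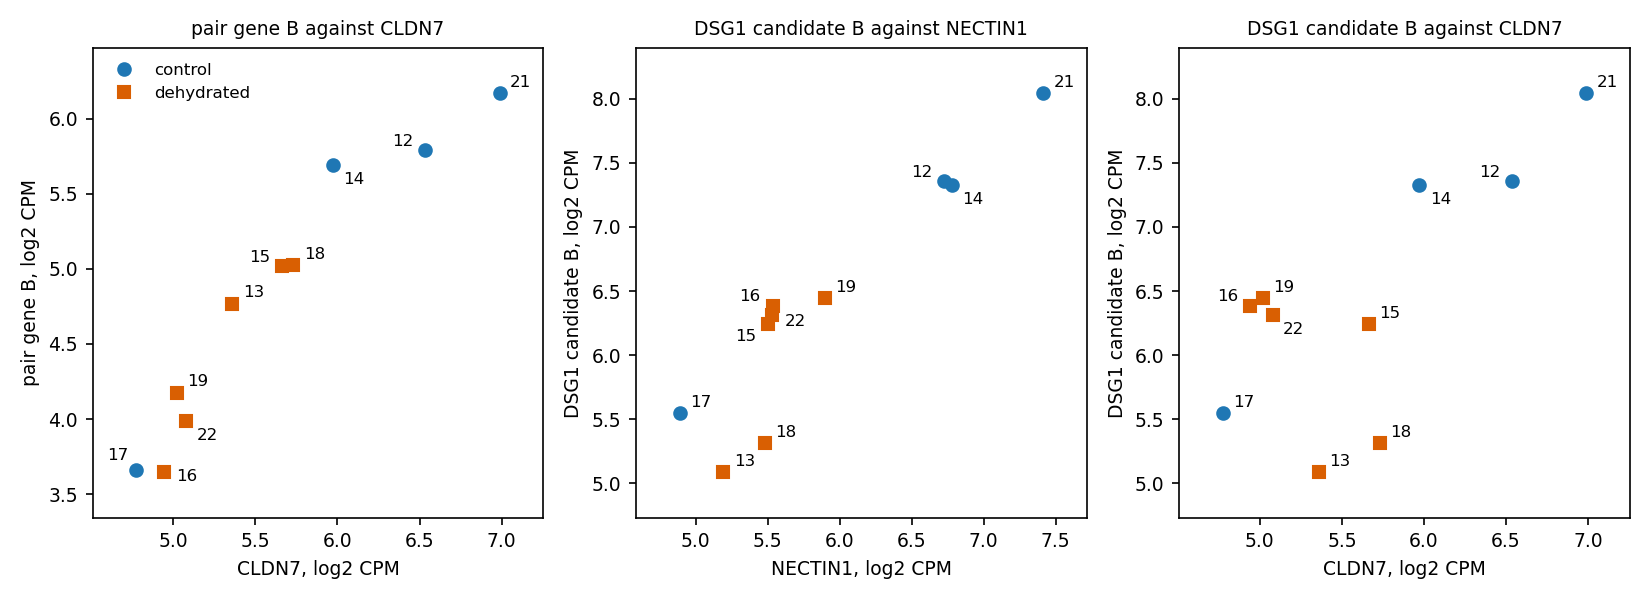
Log2 CPM of pair gene B against CLDN7, of DSG1 candidate B against NECTIN1 and of DSG1 candidate B against CLDN7, with 1 point per rabbit (control circles, dehydrated squares) and its number. The first panel lies along 1 line over all 10 rabbits, and in the third panel dehydrated rabbits 13 and 18 lie below and to the right of rabbits 16, 19 and 22.

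The junction genes were also set against other epithelial genes. SDC1, a heparan sulfate proteoglycan of epithelial cell surfaces, and ECM1, a secreted matrix protein, had log2 fold changes of -1.16 ± 0.32 and -1.09 ± 0.37 (standard error; adjusted p = 0.483 by edgeR for both). The 8 genes that the study lists under intermediate filament stood for the keratins, although which of them are keratins was not checked. Over the 21 ratios to these references, 2 differed between groups at an unadjusted p of 0.05 or less and 0 after adjustment over the 21. In all genes, 19.0% differed in their ratio to SDC1 at that level, 32.7% in that to ECM1 and 31.5% in that to the mean of the intermediate filament genes.

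Both of these ratios were of pair gene A. Over SDC1 its log2 ratio was -1.25, -1.18, -1.17 and -1.10 in control rabbits 12, 14, 17 and 21 and -1.14 to -0.70 in the dehydrated rabbits, a difference of 0.23 with a 95% interval of 0.05 to 0.47 (exact permutation p = 0.019, adjusted p = 0.200). Relative to the mean of the intermediate filament genes it was -1.07, -0.95, -0.48 and -0.51 in the controls and -0.44 to -0.06 in the dehydrated rabbits. These groups did not overlap, by a margin smaller than the spread in either group. The share of all genes that did not overlap in this ratio was not counted. In the same permutation test 31.5% of all genes had an unadjusted p of 0.05 or less. For pair gene A the difference was 0.51 with a 95% interval of 0.07 to 0.94 (exact permutation p = 0.00952, the smallest that the doubled-tail test allows here, adjusted p = 0.200). All 7 ratios to the intermediate filament genes share this denominator, which was selected as lower. They exceeded the controls by 0.16 to 0.51 on the log2 scale in the dehydrated group. Of all other genes, 98.3% were higher relative to it, and 6 of the 7 junction genes had an unadjusted p above 0.05.

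Averaged over the 7 genes and set against the mean of the controls, log2 CPM was 0.30, 0.20, -1.38 and 0.89 in controls 12, 14, 17 and 21 and between -1.30 and -0.62 in the dehydrated rabbits. Rabbit 17 was thus below every dehydrated rabbit in this mean. Of all other genes, the level most like this mean was that of ENSOCUG00000013476 (r = 0.993 over 10 rabbits, as a description), with 150 ± 62.0 CPM (SD, n = 4) in controls and 82.1 ± 10.1 CPM (SD, n = 6) in dehydrated rabbits. SDC1 came next with r = 0.989, and ECM1 had r = 0.728. The most opposite genes were ENSOCUG00000005392 and ENSOCUG00000015979, with r = -0.968 and -0.967 over the same rabbits. An r of 0.9 or more was found for 1.52% of the 15033 other genes.

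The study lists 17 genes under cell junction, the 7 described here and 10 more, chosen on these same rabbits. Of the 10, 9 were lower in the dehydrated group, each at an unadjusted p of 0.05 or less (5.11% of all genes, as above, though these were selected as different), 1 was higher and 0 passed the adjusted threshold in edgeR's test. Their log2 fold changes ran from -1.64 to 1.21 with a median of -1.13, against a median of 0.0445 over all genes tested. The higher one was ENSOCUG00000004459 (log2 fold change 1.21, unadjusted p = 0.0547 in edgeR's fit over all genes), named because it was the only exception. Of these 10 genes, 7 had an r of 0.9 or more to the mean of the 7 genes, and of the 8 intermediate filament genes 2 did. The 8 intermediate filament genes and the 9 listed under keratinocyte differentiation were also selected by the study on these rabbits, so that their direction is no independent evidence. All were lower, with median log2 fold changes of -1.51 and -1.47, and 44.4% of all genes tested were lower.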

How the data were processed

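The authors trimmed the reads of polyA libraries, mapped them with STAR and deposited raw read counts per gene, without normalization (STAR 2.5.4b, HTSeq 0.7.0 and OryCun2.0 are named in the submitters' processing notes, the annotation being Ensembl 95). The 5 lines of reads not assigned to a gene, 41.1 to 55.7% of the counted alignments of a rabbit, were left out. Columns left unused numbered 0. No coordinates or sequences are given, because 0 IDs matched the RefSeq gene table of another assembly (mOryCun1.1). The counting's use of strand is not given in the sources used here.

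Counts were analysed with R 4.3.3 and edgeR 4.0.16 (TMM scaling, filterByExpr, quasi-likelihood test, adjusted p threshold 0.05 by Benjamini-Hochberg). The standard error was the log2 fold change over the square root of F. Alternatives used limma 3.58.1 and DESeq2 1.42.0. Log2 CPM had a prior count of 2. Ratios were log2 of count over count, with 0.5 added for the ratios over all genes. Exact permutation tests doubled the smaller tail, as scipy does, and 95% intervals inverted them (numpy 2.4.6 and scipy 1.17.1 under Python 3.11.15, with pandas 2.3.3 for tables and matplotlib 3.10.9 for figures). Cuffdiff, the authors' test, was not rerun. The tests were tested on simulated data.

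The genes and lists were chosen with earlier results of these data known. Named genes were the 7, SDC1, ECM1, the 2 genes most and the 2 least like their mean, and the pairs with the smallest and largest p of the ratio test. NR4A3 and other pairs were added after their values were seen. The functional-term lists were read from page images of the study's supplement.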

Additional observations from a re-analysis of the deposited data

Results flagged for a closer look

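The levels and ratios of the 7 junction genes gave 56 groups of values, control and dehydrated separately, and in 0 of them did the highest or lowest rabbit stand apart from its own group by Dixon's test. In 4 control rabbits this test can flag only a very wide gap, and it flags about 1 group in 20 by chance.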

How the results depend on the processing

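All 7 junction genes stayed lower in the dehydrated group under each of the 21 alternatives of the edgeR comparison. The number past the adjusted threshold was 0 except without control rabbit 17, with rabbits left out in turn giving 0 to 6, and with a term for the library set and rabbit 17 left out, an alternative chosen after seeing the data, which gave 4. Over all genes, 502 and 448 genes were then called against 0, and 13 by edgeR's likelihood ratio test and 44 by DESeq2, none of them a junction gene. At an unadjusted p of 0.05 or less, limma-voom found 3 of 7, the fit without control rabbit 21 found 2 of 7, and edgeR's fit with a term for runs of neighbouring rabbit numbers left 5 of 7. In that last fit 561 of the 15040 genes tested were lower at that level. CLDN7 and pair gene B had unadjusted p of 0.0668 and 0.0867 in it (adjusted p = 0.659 for both in edgeR). In the main edgeR fit, with TMM scaling and no added term, genes lower and higher at that level numbered 769 and 663. The numbers were 535 and 612 with total-count scaling and 646 and 945 with limma-voom. The 21 ratios gave 0 calls after adjustment under all 14 alternatives tried. Without dehydrated rabbit 16, pair gene A over DSG1 candidate B differed by 0.44 (exact permutation p = 0.0317 unadjusted, adjusted p = 0.667). Another alternative, chosen after seeing the data, counted two-sided p from absolute differences. In the exact permutation test on log2 CPM this gave SDC1 p = 0.0333 in place of 0.0571 and ECM1 p = 0.0429 in place of 0.0571. It gave 2 of 7 junction genes as before. The median r over 10 rabbits was 0.86, 0.75 with library sets within groups centred and 0.76 to 0.88 with 1 rabbit left out. Within the dehydrated group it was 0.37 and, with 1 rabbit left out, 0.22 (without rabbit 13) to 0.45. The median SD of the ratios was 0.24 to 0.38 in controls and 0.47 to 0.52 in dehydrated rabbits with 1 rabbit left out. The causes were not tested. No paired analysis was possible because the groups share no replicate numbers, and what the runs of rabbit numbers stand for is not stated in the labels. Counting error reached at most 0.088 (standard error, log2) in a ratio, and the 95% intervals were 0.52 to 2.59 wide.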
